A study of Mus musculus with 22 samples.

Results

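The genes described here are the major histocompatibility complex (MHC) class II genes of the mouse and their transactivator, 10 of the 29294 genes listed across the series. They were taken by gene symbol: the classical chains H2-Aa, H2-Ab1 and H2-Eb1, the peptide loading genes H2-DMa, H2-DMb1, H2-DMb2, H2-Oa, H2-Ob and Cd74, and the transactivator Ciita. All 10 were listed in each of the 3 deposited tables, and all 10 passed the filter on low values in each. The libraries were total RNA sequencing of splenic immature B cells, labelled B220+CD93+, in 22 samples. In experiment 1, 3 libraries came from Tcrd-GDL mice given diphtheria toxin (depleted) and 3 from untreated Tcrd-GDL mice. In experiment 2, 2 libraries came from toxin-treated Tcrd-GDL mice (depleted), 3 from toxin-treated Tcrd-H2BeGFP mice (the toxin control) and 5 from untreated Tcrd-GDL mice. Toxin was given as 2 injections of 15 ng per gram of body weight 48 h apart, and the mice were analysed on day 8 after the first. In the culture experiment, 3 libraries came from immature B cells cultured with γδ T cells and 3 from immature B cells cultured alone, all taken from Tcrd-H2BeGFP mice without toxin; whether the B cells were sorted again after culture is not stated. Both alleles are reporters at the T cell receptor delta locus, and Tcrd-GDL also places the diphtheria toxin receptor in γδ T cells, so that toxin removes them; the labels do not state whether Tcrd-H2BeGFP mice carry that receptor. Replicate numbers below are those of the labels. The sources used here do not give age, sex or whether each library came from its own mouse or culture, so p-values measure the spread between these samples, which may be technical.

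MHC class II molecules carry peptides from taken-up proteins to the surface of B cells, dendritic cells and macrophages, where CD4 T cells read them. Each molecule pairs an alpha and a beta chain: H2-Aa and H2-Ab1 encode the chains of I-A, and H2-Eb1 the beta chain of I-E. New chains are held and guided to endosomes by the invariant chain, encoded by Cd74. There H2-DM, made of H2-DMa with H2-DMb1 or H2-DMb2, exchanges the remnant of the invariant chain for peptide, and H2-DO, made of H2-Oa and H2-Ob, restrains H2-DM. B cells are known for high class II transcription and for H2-DO. Ciita does not itself bind DNA. It is recruited by factors that sit on shared promoter elements, with RFX and CREB proteins on the X box and NF-Y on the Y box, and it drives the classical chains, H2-DM and Cd74 together.

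Promoter stretches are shown because these shared elements are what Ciita works through. In GRCm38 (GENCODE M21) the class II genes lie together on chromosome 17: H2-Oa at 34092340 to 34095234, H2-DMa at 34119541 to 34139101, H2-DMb2 at 34143307 to 34151555, H2-DMb1 at 34153072 to 34160230, H2-Ob at 34238903 to 34254414, H2-Ab1 at 34257689 to 34269419, H2-Aa at 34282744 to 34287823 on the minus strand, and H2-Eb1 at 34305867 to 34316674. Ciita lies on chromosome 16 at 10480059 to 10528418. The Ensembl identifiers in the files are ENSMUSG00000036594 for H2-Aa, ENSMUSG00000073421 for H2-Ab1, ENSMUSG00000060586 for H2-Eb1, ENSMUSG00000037649 for H2-DMa, ENSMUSG00000079547 for H2-DMb1, ENSMUSG00000037548 for H2-DMb2, ENSMUSG00000024334 for H2-Oa, ENSMUSG00000041538 for H2-Ob, ENSMUSG00000022504 for Ciita and ENSMUSG00000024610 for Cd74. RefSeq promoter windows, from 250 bases before the start to 50 after it (GRCm38.p6), matched 7 of the 10 genes and not H2-Ab1, Cd74 or Ciita. Each stretch below runs 5′ to 3′ on the gene's strand, from 130 to 31 bases before the start. This start is that of the RefSeq window and can differ from the GENCODE span above. The stretch of H2-DMb2 lies inside its GENCODE span, and those of H2-DMb1 and H2-Oa reach into theirs. Capitals mark the longer Y box GATTGG and, where present, AACNNATGATGC, a stretch with the place of the X box.
H2-Aa, chr17:34287854-34287953, minus strand: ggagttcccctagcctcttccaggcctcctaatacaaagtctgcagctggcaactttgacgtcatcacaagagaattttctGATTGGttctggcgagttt
H2-Eb1, chr17:34305737-34305836, plus strand: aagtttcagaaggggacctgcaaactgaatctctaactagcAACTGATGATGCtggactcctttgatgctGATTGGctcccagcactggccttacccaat
H2-DMb1, chr17:34153061-34153160, plus strand: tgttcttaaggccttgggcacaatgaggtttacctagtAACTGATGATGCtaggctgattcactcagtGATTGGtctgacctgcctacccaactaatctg
H2-DMb2, chr17:34145119-34145218, plus strand: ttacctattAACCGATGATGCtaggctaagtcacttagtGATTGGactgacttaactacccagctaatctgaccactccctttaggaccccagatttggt
H2-Ob, chr17:34238775-34238874, plus strand: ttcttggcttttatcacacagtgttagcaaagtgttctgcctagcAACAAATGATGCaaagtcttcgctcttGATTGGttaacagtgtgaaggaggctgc
H2-Oa, chr17:34092249-34092348, plus strand: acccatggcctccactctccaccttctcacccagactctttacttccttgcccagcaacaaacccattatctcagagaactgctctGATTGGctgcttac

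The letters GATTGG stood on the gene's own strand in all 7 genes with a window, and in 16.11% of 32851 mouse promoter windows of the same length when both strands were searched. The match began 49 bases before the start in H2-Aa, 60 in H2-Eb1, 62 in H2-DMb1, 91 in H2-DMb2, 58 in H2-Ob and 44 in H2-Oa. H2-DMa has 2 windows, 1 without a match and 1 with a match 199 bases before its start. The stretch AACNNATGATGC was formed from the windows of H2-Eb1, H2-DMb1, H2-DMb2 and H2-Ob, as the bases they share before the Y box, after they had been read, so its presence in them is no test. On both strands it occurred in 13 of the 32851 windows (0.03957%). With GATTGG within 25 bases after it on the gene strand it occurred in 4 windows (0.01218%), those of H2-Eb1, H2-DMb1, H2-DMb2 and H2-Ob, with 17, 18, 18 and 15 bases between the matches. H2-DMb1 and H2-DMb2 are near copies, so their windows are not independent. H2-Aa held instead the full CRE TGACGTCA, the letters bound by CREB proteins, 74 bases before its start, as did 1.79% of all windows. The shorter Y box core ATTGG, part of GATTGG, stood in 37.41% of windows, TGNGTCA in 15.4% and ACAGATG in 5.014%, both strands counted. Among the members, ACAGATG stood in H2-Oa, 137 bases before the start, and on the opposite strand in H2-Aa, 232 bases before it. TGNGTCA stood on the opposite strand in H2-Oa, 132 bases before the start, and in the H2-DMa window with GATTGG, 86 bases before it.

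Counted reads per library ran from 9794413 to 20343954 in experiment 1. The range was 22022330 to 36840455 for experiment 2 and 17505909 to 28729574 for culture. Values are the authors' normalized counts, scaled within each table, so groups are compared within a table. All 8 B cell marker genes passed the filter on low values in every table, which abundant genes could hardly fail, so it is no check of the label. B cell markers summed to 49622 to 160981 normalized counts per library. Dendritic cell markers summed to 88.7 to 945, macrophage and monocyte markers to 245 to 1717 and T cell markers to 1814 to 7564. The T cell sums include Cd2, which B cells also express. Replicate 1 of the depleted group in experiment 1 stood apart, with 28.7% of its reads on Gm23935, against 16.1 to 20.4% in the other 5 libraries of that table, so experiment 1 is also given without it. The 2 depleted libraries of experiment 2 differed from each other: replicate 4 had the highest dendritic cell marker sum of all libraries (945) and replicate 5 had 548. Exon overlaps bear on the counts, since the sources used here do not say whether counting used strand. H2-DMa shares 360 exon bases (10.44% of its exons) with Brd2, H2-Oa 321 (22.81%) with BC051537, and Ciita 329 (3.45%) with Dexi, each on the opposite strand. H2-DMb1 and H2-DMb2 share 369 windows of 50 bases, 22.65% of those of H2-DMb1 and 21.19% of those of H2-DMb2, so reads between them could be split or lost.

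Cd74, apart from the rest, lies on chromosome 18 at 60803848 to 60812652. Per kilobase of exon, the 10 genes spanned a wide range, in an order that differed between groups for H2-Aa with H2-Eb1 and for H2-DMb1 with Ciita. In untreated cells of experiment 2, Cd74 stood at 63245 ± 5718 normalized counts per kb (SD, n = 5). The classical chains followed, with H2-Ab1 at 19569 ± 1513, H2-Eb1 at 12478 ± 561 and H2-Aa at 10062 ± 636 per kb. Below these, H2-DMb2 stood at 4626 ± 238 per kb, H2-Ob at 2102 ± 231 and H2-Oa at 1624 ± 108. H2-DMa (797 ± 63 per kb), H2-DMb1 (483 ± 30.1) and Ciita (391 ± 20.6) were lowest, and no neighbours in this order overlapped over these 5 libraries. This order depends on the merged exon length divided by, from 1407 bases in H2-Oa to 9535 in Ciita. In normalized counts of the same group, Ciita (3728 ± 197) stood above H2-DMa (2747 ± 217), H2-Oa (2284 ± 152) and H2-DMb1 (812 ± 50.6). H2-Aa (38213 ± 2415) stood above H2-Eb1 (24256 ± 1090), and H2-Ob (11308.5 ± 1242) above H2-DMb2 (8082 ± 416). Cd74, H2-Ab1, H2-DMb2, H2-Ob, H2-Oa and H2-DMa held the same ranks per kb in all 7 groups, although H2-Ob and H2-Oa overlapped in 3 of them. Also per kb, H2-Aa ranked above H2-Eb1 in cells cultured with γδ T cells and below it in the other 6 groups. The pair overlapped in both culture groups and in the depleted group of experiment 2. H2-DMb1 and Ciita exchanged the last ranks between groups. Of the other class II loci, H2-Eb2, a lowly expressed E beta gene, had 366 ± 45.1 per kb, and H2-Ea-ps, annotated as a polymorphic pseudogene of the I-E alpha chain, had 5 reads in 2 of 6 libraries of experiment 1 and 8 reads in 5 of 10 libraries of experiment 2.

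Immature B cells kept with γδ T cells had more RNA of classical chains, loading genes and Ciita than those kept alone, except for H2-Ob, whose sign turned under quantile normalization. The other 9 of the 10 genes were higher in every library with γδ T cells than in every library alone, as were 7.94% of the 12386 genes tested. Ciita, H2-DMa, H2-DMb1, H2-DMb2 and H2-Ab1 rose (limma, adjusted p under 0.05), that is 5 of 10, beside 1.1% of all genes called higher. The median log2 change of the 10 was 0.68, against -0.00495 over all genes. Together the 10 genes took 0.933 to 1.03% of reads with γδ T cells and 0.596 to 0.666% alone. In bulk RNA, a change in RNA per cell and a change in the number of cells of a type cannot be told apart.

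Among the classical chains, H2-Ab1 had 41318, 41123 and 34113 normalized counts with γδ T cells, against 23419, 22722 and 23685 alone. That was 1.66-fold higher, a log2 change of 0.73 ± 0.15 (SE; limma, adjusted p = 0.025). H2-Aa, its I-A partner, had 37057, 36734 and 28349 normalized counts with γδ T cells, against 23266, 22364 and 24077 alone. H2-Eb1 had 17545, 17184 and 15623 normalized counts with γδ T cells, against 11885, 11585 and 12368 alone. In all 3 chains, replicate 3 was the lowest of the libraries with γδ T cells and still lay above every library alone. The log2 changes of H2-Aa (0.54 ± 0.16) and H2-Eb1 (0.49 ± 0.13) did not pass the test (limma, adjusted p = 0.113 and 0.0789). H2-Eb2, the other E beta locus, also had non-overlapping groups, at 1418 ± 229 with γδ T cells and 1054 ± 112 alone (SD, n = 3 each; limma, adjusted p = 0.177).

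Among the peptide loading genes, all 3 chains of H2-DM rose. H2-DMa had 2765, 2813 and 2347 normalized counts with γδ T cells, against 1560.1, 1587 and 1414 alone, a log2 change of 0.79 ± 0.12 (limma, adjusted p = 0.00398). H2-DMb2 had 6544, 6845 and 6341 normalized counts with γδ T cells, against 3889.5, 3726 and 4222 alone, a log2 change of 0.74 ± 0.12 (limma, adjusted p = 0.00508). H2-DMb1, the least abundant by reads, had 634, 528 and 793 normalized counts with γδ T cells, against 377, 297 and 409 alone, a log2 change of 0.84 ± 0.17 (limma, adjusted p = 0.0216). The libraries with γδ T cells lay above all those alone in each of the 3 genes. Brd2, which overlaps H2-DMa, had a log2 change of -0.14 ± 0.12 (limma, adjusted p = 0.736). Cd74, the invariant chain, had 76907, 79505 and 82580.3 normalized counts with γδ T cells, against 47092, 56179 and 52148 alone. The groups did not overlap, but the log2 change of 0.62 ± 0.17 missed the threshold (limma, adjusted p = 0.0934).

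The H2-DO chains differed from H2-DM in their values. H2-Ob had 7874, 8507 and 7035 normalized counts with γδ T cells, against 7426, 7297 and 8036 alone, and the groups overlapped. Its log2 change was 0.04 ± 0.13 (limma, adjusted p = 0.941), or -0.02 after quantile normalization. H2-Oa had 1635, 1758 and 1541 normalized counts with γδ T cells, against 1215, 1207 and 1268 alone, without overlap (0.42 ± 0.11 on the log2 scale; limma, adjusted p = 0.0821). BC051537, which overlaps H2-Oa, had a log2 change of 0.21 and did not pass, and its part in the H2-Oa counts was not tested. The level of H2-DMa relative to H2-Ob, as a log2 difference within each library, ran from -1.60 to -1.51 with γδ T cells and from -2.51 to -2.20 alone. That ratio was formed after the values had been seen and was not tested.

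Ciita had 3529, 3458 and 5958 normalized counts with γδ T cells, against 2059, 1946 and 2379 alone. The groups did not overlap, and replicate 3 with γδ T cells was far above its 2 fellows while its classical chains were the lowest of the 3. The change was 1.97-fold, 0.98 ± 0.19 on the log2 scale (limma, adjusted p = 0.0174), and 0.72 without that replicate (adjusted p = 0.000338). The mean log2 level of the classical chains over that of Ciita was 3.08 and 3.1 in replicates 1 and 2 with γδ T cells, 2.05 in replicate 3, and 3.01 to 3.21 alone. Dexi, which overlaps Ciita by 3.45% of the exon bases of Ciita, also rose, to 525 ± 8.18 with γδ T cells, against 200.1 ± 16.3 alone (SD, n = 3 each; log2 change 1.39 ± 0.13, limma, adjusted p = 6.21e-05). Dexi was looked up after the annotation had shown the overlap, and its part in the Ciita counts was not tested.

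**Figure D1:**
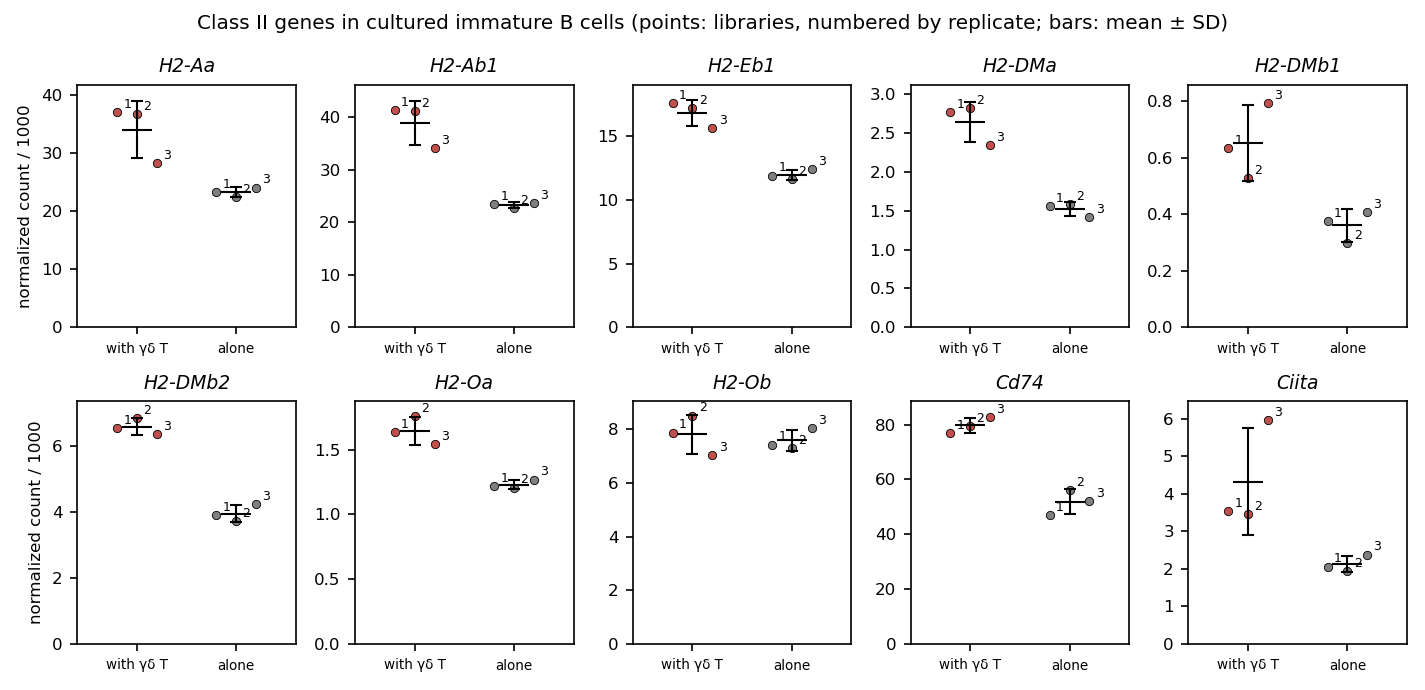
Normalized counts divided by 1000 (linear axes from 0) of the 10 genes in cultured immature B cells, with γδ T cells (red, left) and alone (grey, right); points are libraries numbered by replicate and bars are the mean ± SD (n = 3 each). In 9 panels the red points lie above the grey ones, and in H2-Ob, whose log2 change of 0.04 turned to -0.02 after quantile normalization, they overlap; replicate 3 with γδ T cells is highest in Ciita and lowest in the classical chains.

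The number that passed depended on single libraries. Without replicate 3 with γδ T cells, 9 of the 10 genes passed, beside 2.21% of all genes called higher in that fit. Of the cells cultured alone, leaving out replicate 1 left 1 (H2-DMa), and leaving out replicate 2 or 3 left 2 (H2-DMa and H2-DMb2), beside 0.614%, 0.638% and 0.654% of genes called higher without replicates 1, 2 and 3. H2-Ab1 was lost in these fits and without replicate 1 or 2 with γδ T cells, which left 4 genes each (beside 0.848% and 0.832%). The log2 changes themselves stayed positive in every one of these fits except for H2-Ob (-0.03 to 0.11), with H2-Ab1 from 0.69 to 0.82, H2-DMa from 0.74 to 0.88 and Ciita from 0.72 to 1.11.

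Few genes for the factors and enzymes around class II passed the test, beside 1.1% of all genes called higher and 1.06% lower. Of the 8 genes for RFX, NF-Y, CREB1 and ATF1, which hold Ciita at the promoter, 0 passed in limma and 0 had an unadjusted p under 0.05. Of 12 regulators of Ciita 0 passed in limma, with 3 higher and 2 lower at an unadjusted p under 0.05, beside 5.12% and 7.5% of all genes. Of 10 antigen processing genes 1 rose: Ifi30, the lysosomal thiol reductase that opens disulphide bonds of antigens, stood at 5237 ± 346 with γδ T cells and 2385 ± 279.9 alone (SD, n = 3 each; log2 change 1.14 ± 0.12, limma, adjusted p = 0.000263). Of 4 genes of class II turnover 1 rose: Cd83, which protects surface class II from ubiquitination by March1, stood at 7390.1 ± 237 with γδ T cells and 1649 ± 113 alone (log2 change 2.17 ± 0.11, limma, adjusted p = 4.5e-07). Its 4.49-fold change was larger than that of any of the 10 class II genes.

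Of the markers of other class II positive cells, 0 of 4 tested dendritic cell genes and 0 of 3 tested macrophage and monocyte genes passed in limma, and 0 had an unadjusted p under 0.05. The 9 dendritic cell markers summed to 186 to 263 with γδ T cells and 203 to 253 alone. Batf3, which did not pass the filter on low values, was at 0 in all 3 libraries with γδ T cells. The 9 macrophage and monocyte markers summed to 478 to 674 with γδ T cells and 625.2 to 775 alone. Fcgr1, Mertk and C1qc, which did not pass that filter, were at 0 throughout with γδ T cells. T cell markers summed to 1814 to 2171 with γδ T cells and 2303 to 2430 alone, of which Cd2 made up 1146 ± 176 with γδ T cells and 1636 ± 35.1 alone. Cd3e stood at 50.9 ± 6.47 with γδ T cells and 46.5 ± 4.79 alone. Of the 12, Lck, a kinase that some B cells also use, rose (0.71 ± 0.15; limma, adjusted p = 0.0297) and Cd5 fell (-0.95 ± 0.21; limma, adjusted p = 0.0386). Among B cell stage genes, Fcer2a (CD23), which appears as B cells mature, rose (1.56 ± 0.12 on the log2 scale; limma, adjusted p = 2.03e-05). Sox4 and Myb, both typical of early B cells, fell by 0.75 and 0.52 (limma, adjusted p = 0.0158 and 0.0494). The part of B cell stage in the class II changes was not tested. Of the 6 plasma cell markers, Xbp1 rose (1.07 ± 0.12; limma, adjusted p = 0.000246) and Sdc1 fell (-1.78 ± 0.17; limma, adjusted p = 0.000107).

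In experiment 2 the toxin control had the lowest group means of all 3 classical chains, although quantile normalization turned the sign of H2-Ab1 and H2-Eb1 against untreated mice. The 3 comparisons of this table share libraries in pairs, so their results are not independent, and the toxin control differs from the other groups in its Tcrd allele as well, so allele and depletion cannot be told apart in depleted mice over toxin control, nor allele and toxin in toxin control over untreated mice. H2-Aa and H2-Ob fell and Ciita rose in the toxin control relative to untreated mice. Beside these 2 lower and 1 higher of 10, limma called 8.34% of 13364 genes lower and 7.32% higher. In depleted mice relative to the toxin control, H2-Aa, H2-Eb1, H2-DMa and H2-Ob rose, 4 of 10 beside 4.58% of genes called higher, and 0 fell. In 7 of 10 genes both depleted libraries lay above all toxin control libraries, beside 21.1% of genes. The toxin control lay wholly below untreated mice in 4 genes, beside 11.7%, and wholly above in 1, beside 11.6%. The median log2 change of the 10 was -0.15 in toxin control over untreated mice and 0.39 in depleted mice over toxin control, where quantile normalization turned the sign of H2-Eb1.

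H2-Aa had 56476 and 38799 in depleted, 29378, 25992 and 31075 in toxin control and 36561, 39537, 40946, 39072 and 34951 in untreated mice. Every toxin control library lay below every other library, and depleted replicate 4 lay far above all. H2-Aa was 0.70 ± 0.16 on the log2 scale in depleted mice over toxin control (limma, adjusted p = 0.015) and -0.41 ± 0.13 in toxin control over untreated mice (limma, adjusted p = 0.038). H2-Ab1 had 65196 and 48365 in depleted, 40530.1, 38100.4 and 41734 in toxin control and 51917, 53567, 53039.5, 48462 and 44279 in untreated mice. Its toxin control libraries were again the lowest, with log2 changes of 0.49 ± 0.15 (limma, adjusted p = 0.0578) and -0.32 ± 0.12 (adjusted p = 0.0857), neither past the threshold. H2-Eb1 had 33044 and 26305 in depleted, 21976, 20956 and 23173 in toxin control and 25295, 24356, 24817, 24382 and 22431 in untreated mice. Depleted libraries lay above all others, and toxin control overlapped untreated mice. H2-Eb1 rose by 0.42 ± 0.12 in depleted mice over toxin control (limma, adjusted p = 0.0451) and was -0.14 ± 0.10 in toxin control over untreated mice (adjusted p = 0.362).

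Quantile normalization, which gives each rank the same value in every library, removed calls on the classical chains. In depleted mice over toxin control, H2-Aa became 0.11 (limma, adjusted p = 0.485) and H2-Eb1 -0.01 (0.971). In toxin control over untreated mice, H2-Aa became -0.02 (0.908), H2-Ab1 0.06 and H2-Eb1 0.17. Scaling by TMM factors left all 3 calls on H2-Aa and H2-Eb1 in place. H2-Eb2 stood at 1657 ± 587 in depleted, 1163 ± 47.3 in toxin control and 1241 ± 153 in untreated mice and passed in none of the 3 comparisons.

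Of the loading genes, H2-Ob, the beta chain of H2-DO, had 15047 and 11261 in depleted, 8341, 8056 and 8585 in toxin control and 11843, 10528, 12764, 11806 and 9602 in untreated mice. Every toxin control library lay below every untreated library, and replicate 5 of the depleted group lay within the untreated range. H2-Ob rose by 0.64 ± 0.14 in depleted mice over toxin control (limma, adjusted p = 0.012) and was -0.43 ± 0.11 in toxin control over untreated mice (limma, adjusted p = 0.0162). H2-DMa had 3365 and 3117 in depleted, 2581, 2355 and 2641 in toxin control and 3085, 2709, 2816, 2569 and 2556 in untreated mice. It rose by 0.36 ± 0.10 in depleted mice over toxin control (limma, adjusted p = 0.0422), while toxin control and untreated mice overlapped (-0.12 ± 0.08). Brd2, its overlapping neighbour, was -0.12 ± 0.09 in depleted mice over toxin control (adjusted p = 0.425). BC051537, which overlaps H2-Oa, was 0.48 on the log2 scale in depleted mice over toxin control and -0.27 in toxin control over untreated mice. It passed in neither, and its part in the H2-Oa counts was not tested. H2-Oa had 3018 and 2610.0 in depleted, 2041, 1802 and 2516 in toxin control and 2489.6, 2331, 2225, 2302 and 2074 in untreated mice, and its log2 change of 0.42 ± 0.13 in depleted mice over toxin control lay at the threshold (limma, adjusted p = 0.0505). H2-DMb1 had 1093 and 751 in depleted, 695, 738 and 698 in toxin control and 749, 769.5, 843, 834 and 867 in untreated mice, and the toxin control lay below both other groups (0.35 ± 0.14 on the log2 scale in depleted mice over toxin control; adjusted p = 0.117). H2-DMb2 and Cd74 overlapped in all 3 comparisons, with log2 changes of 0.10 ± 0.10 and -0.05 ± 0.18 in depleted mice over toxin control. Cd74 had 108812 and 122245 in depleted, 113941, 124171 and 121054 in toxin control and 115050, 110062, 91333, 102140 and 112358 in untreated mice.

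Ciita was higher in the toxin control than in untreated mice. It had 4615 and 3864 in depleted, 4236, 5247 and 4730.2 in toxin control and 3788, 3513, 3566, 3769.6 and 4005 in untreated mice. The toxin control libraries lay above every untreated library, and the depleted libraries overlapped both groups. Ciita was 0.34 ± 0.09 on the log2 scale in toxin control over untreated mice (limma, adjusted p = 0.0195) and -0.16 ± 0.11 in depleted mice over toxin control (limma, adjusted p = 0.373). Dexi was -0.12 ± 0.17 in toxin control over untreated mice (adjusted p = 0.682). The mean log2 level of the classical chains over that of Ciita was 3.25 and 3.42 in depleted, 2.39 to 2.81 in toxin control and 3.03 to 3.4 in untreated mice. That ratio was formed after the values had been seen and was not tested.

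**Figure D2:**
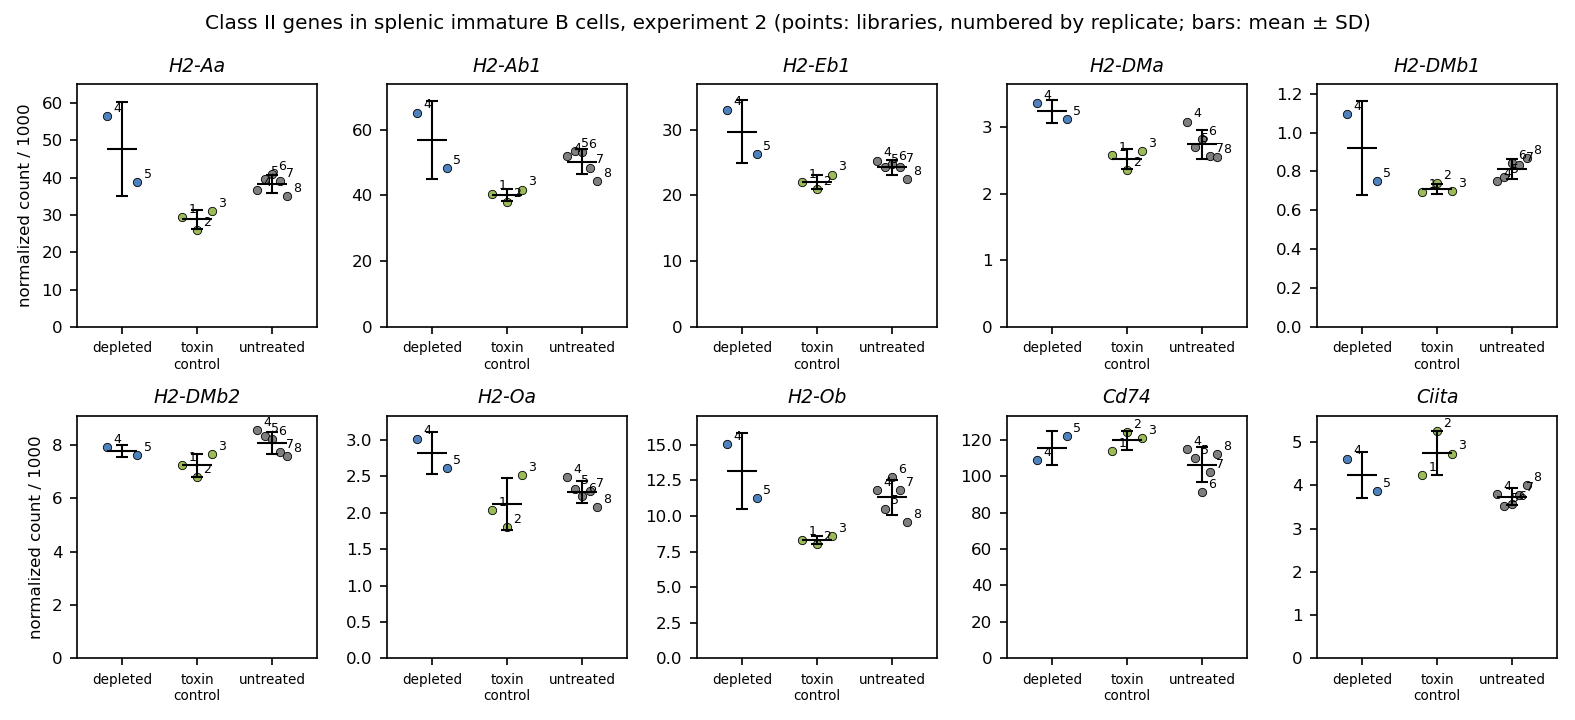
Normalized counts divided by 1000 (linear axes from 0) of the 10 genes in experiment 2, for depleted (blue, n = 2), toxin control (green, n = 3) and untreated mice (grey, n = 5); points are libraries numbered by replicate and bars are the mean ± SD. Toxin control libraries are the lowest in H2-Aa, H2-Ab1 and H2-Ob and lie above all untreated libraries in Ciita; after quantile normalization the toxin control over untreated log2 values were -0.02 for H2-Aa and 0.06 for H2-Ab1.

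These calls depended on single libraries, depleted replicate 4 and toxin control replicate 2 among them. In depleted mice over toxin control, 0 of the 10 genes passed when either of them was left out, beside 0.172% of genes called higher without depleted replicate 4 and 0.943% without toxin control replicate 2. Without depleted replicate 5, 7 passed (beside 9.73%), without toxin control replicate 1, 2 passed (3.57%) and without toxin control replicate 3, 3 passed (2.35%). Without depleted replicate 4, H2-Aa was 0.43 and H2-Ob 0.44; without replicate 5 they were 0.97 and 0.85. These fits take the spread of the single remaining depleted library from the other groups. A fit on these 2 groups alone kept 1 call, H2-Ob. In toxin control over untreated mice, 0 passed without toxin control replicate 2 (beside 0.569% of genes called higher and 0.898% lower) or replicate 3 (2.41% and 3.62%), and 1, H2-Ob, without untreated replicate 6 (4.13% lower). Ciita was then 0.27 without toxin control replicate 2 (adjusted p = 0.13), and H2-Aa lost its call when any toxin control library, or any of untreated replicates 4 to 7, was left out.

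Markers of other cells and of B cell stage also differed between these groups. Beside the calls below, limma called 7.32% of all genes higher and 8.34% lower in toxin control over untreated mice. In depleted mice over toxin control the shares were 4.58% and 4.49%. Of 7 tested dendritic cell markers 0 passed in limma in any of the 3 comparisons. At an unadjusted p under 0.05, 3 were higher in depleted over untreated mice, beside 4.38% of all genes, and 0 lower, beside 5.42%. In depleted mice over toxin control 2 were higher and 1 lower at that threshold, beside 13.1% and 13.8% of all genes. The 10 dendritic cell markers summed to 945 in depleted replicate 4, 548 in depleted replicate 5, 366 to 471 in toxin control and 339 to 675 in untreated mice. Siglech, a plasmacytoid dendritic cell gene, stood at 195 ± 112 in depleted, 52.2 ± 9.63 in toxin control and 52.7 ± 59.2 in untreated mice. The tested dendritic cell markers did not move together. In depleted over untreated mice 5 of the 7 had log2 changes above 0, with a range of -0.94 to 2.25. In depleted mice over toxin control 5 of the 7 did, with a range of -1.08 to 1.77. The 10 macrophage and monocyte markers summed to 744 to 1129 in depleted, 1140 to 1717 in toxin control and 757 to 1595 in untreated mice, and Lyz2, the macrophage lysozyme, fell in depleted mice over toxin control, to 192 ± 69.9, against 662 ± 176 (-1.80 ± 0.44 on the log2 scale; limma, adjusted p = 0.0216). Of the 8 tested, 5 had log2 changes above 0 there, with a median of 0.15 over the 8, and none of those 5 passed. T cell markers summed to 5910 to 6197 in depleted, 6790 to 7564 in toxin control and 5860 to 6817 in untreated mice. Cd2, which B cells also express, made up most of each sum, at 5207 ± 41.7 in depleted, 5345 ± 19.9 in toxin control and 5394 ± 592 in untreated mice. Of the 12, Lat, Tcf7, Cd3g and 1 more rose in toxin control over untreated mice (log2 changes 1.75 ± 0.34, 1.81 ± 0.39 and 1.51 ± 0.46; limma, adjusted p = 0.00625, 0.00913 and 0.0373). Cd5, Tcf7 and Lat fell in depleted mice over toxin control (-1.88 ± 0.45, -2.06 ± 0.49 and -1.44 ± 0.43; limma, adjusted p = 0.0198, 0.0209 and 0.0455). Rag1, active in early B cells that rearrange receptors, was 1.84 ± 0.26 on the log2 scale in toxin control over untreated mice (limma, adjusted p = 0.00187) and -3.84 ± 0.33 in depleted mice over toxin control (limma, adjusted p = 9.38e-06). Cd93, the sorting marker, was 0.81 ± 0.13 and -0.86 ± 0.16 in the same comparisons (adjusted p = 0.00232 and 0.00597), and Ptprc, which encodes B220, was 0.41 ± 0.10 and -0.50 ± 0.13 (adjusted p = 0.0163 and 0.0254). Sox4 was 0.32 ± 0.10 in toxin control over untreated mice (adjusted p = 0.0438) and Ighd, the IgD heavy chain, 0.77 ± 0.14 in depleted mice over toxin control (adjusted p = 0.00676). The part of these markers in the class II values was not tested.

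Of the 11 tested regulators of Ciita, 3 rose in toxin control over untreated mice and 4 fell in depleted mice over toxin control. Beside these and the counts below, limma called 7.32% of 13364 genes higher and 8.34% lower in toxin control over untreated mice. In depleted mice over toxin control it called 4.58% higher and 4.49% lower. Single calls in lists this short are not read as a result about the list. Ebf1 and Bach2, both B lineage factors, rose by 0.52 ± 0.09 and 0.52 ± 0.12 in toxin control over untreated mice (limma, adjusted p = 0.0046 and 0.011) and were -0.42 ± 0.12 and -0.60 ± 0.15 in depleted mice over toxin control (adjusted p = 0.0348 and 0.023). Of the 8 promoter factor genes, Atf1 alone fell in toxin control over untreated mice (-0.27 ± 0.08; limma, adjusted p = 0.0289), and 0 passed in depleted mice over toxin control. Of 10 antigen processing genes, Ctss, the protease that trims the invariant chain in B cells, and Ctsh fell in toxin control over untreated mice (-0.33 ± 0.09 and -0.35 ± 0.10; limma, adjusted p = 0.0191 and 0.0331). In depleted mice over toxin control, Ctsh rose (0.46 ± 0.13; limma, adjusted p = 0.038) and Ifi30 fell (-0.70 ± 0.16; limma, adjusted p = 0.0183). March1, the ligase that marks class II for degradation, rose in depleted mice over toxin control (0.39 ± 0.10; limma, adjusted p = 0.0273), 1 of 4 turnover genes.

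Relative to untreated mice of the same Tcrd-GDL strain, 0 of the 10 genes passed in depleted mice of experiment 2, and limma called 0.299% of 13364 genes in either direction. Untreated mice had no toxin, so toxin and depletion cannot be told apart here or in the same comparison of experiment 1. edgeR and DESeq2 also called 0 of the 10. At an unadjusted p under 0.05, 3 of 10 were higher (H2-Eb1, H2-DMa and H2-Oa), beside 4.38% of all genes. The log2 change was above 0 in 9 of 10, beside 49.5% of all genes (Cd74 turned to -0.07 under quantile normalization), with a median of 0.20 against -0.00237 over all genes. The same 3 genes had both depleted libraries above all 5 untreated ones, beside 5.78% of genes. H2-Eb1 was 0.28 ± 0.11 on the log2 scale (limma, adjusted p = 0.402), H2-Oa 0.30 ± 0.12 (0.382) and H2-DMa 0.24 ± 0.10 (0.39). H2-Aa was 0.30 ± 0.14, from 0.02 without depleted replicate 4 to 0.57 without replicate 5, where it passed (limma, adjusted p = 0.0465) beside 1.7% of genes called higher. Rag1 and Myb fell and Ighd rose in this comparison (-1.99 ± 0.30, -0.57 ± 0.11 and 0.78 ± 0.13; limma, adjusted p = 0.013, 0.0403 and 0.0209).

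Experiment 1 gave the same comparison in other libraries, with log2 changes above 0 in all 10 genes (beside 48% of all genes, and H2-Ab1 apart under quantile normalization) and 0 called. limma called 0 of 11701 genes there (0%), edgeR 0 and DESeq2 31, none of them class II genes, while 1033 genes (8.83%) had an unadjusted p under 0.05. In 7 of the 10 genes every depleted library lay above every untreated one, beside 7.29% of all genes, and 2 of 10 were higher at an unadjusted p under 0.05, beside 4.16%. The median log2 change was 0.17, against -0.0109 over all genes. A positive shift of class II genes in both experiments was known when this set of genes was chosen, so the signs are not independent support.

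Of the 10 genes, H2-DMb1 had the largest log2 change in experiment 1. It had 413, 593 and 470.1 normalized counts in depleted mice, against 318, 356 and 286 in untreated mice. The groups did not overlap (0.61 ± 0.15 on the log2 scale; limma, adjusted p = 0.415); with 270 to 563 reads per library, its counting error reached 6.09%. H2-Oa had 1289, 1301 and 1319 normalized counts in depleted mice, against 1152, 999 and 1105 in untreated mice, again without overlap (0.27 ± 0.09; adjusted p = 0.508). H2-Aa had 17140.1, 21552 and 19051 normalized counts in depleted mice, against 15757, 16477 and 16825 in untreated mice. The depleted libraries were higher by 0.23 ± 0.12 on the log2 scale (adjusted p = 0.598). H2-Ab1 (0.16 ± 0.11), H2-Eb1 (0.20 ± 0.10), H2-DMb2 (0.17 ± 0.09) and H2-Ob (0.15 ± 0.09) were also without overlap, with H2-Ab1 at -5.65e-05 after quantile normalization. H2-Eb2 stood at 740.0 ± 83.3 in depleted and 589 ± 54.7 in untreated mice (SD, n = 3 each; log2 change 0.33 ± 0.12, limma, adjusted p = 0.512).

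Ciita and Cd74 set replicate 1 of the depleted group apart. Ciita had 1788, 2499 and 2448 normalized counts in depleted mice, against 2229.8, 2103 and 2146 in untreated mice. Cd74 had 46650.1, 67536 and 60712 normalized counts in depleted mice, against 57575, 54759 and 58225 in untreated mice. In both genes depleted replicate 1 was the lowest of the 6 libraries and the other 2 depleted libraries were the highest. Without it, the log2 change of Ciita was 0.20 in place of 0.04, and that of Cd74 0.17 in place of 0.02; neither passed (limma, adjusted p = 0.117 and 0.327). H2-Aa, H2-DMa and H2-DMb1 did pass without it, at 0.31, 0.30 and 0.73 (limma, adjusted p = 0.032, 0.0226 and 0.00124), beside 4.09% of all genes called higher in that fit. Dendritic cell markers summed to 88.7 to 105 in depleted and 114 to 132 in untreated mice, and 2 of the 10 passed the filter on low values. Clec9a and Batf3, which did not pass it, were at 0 in all depleted libraries. Macrophage and monocyte markers summed to 245 to 440 in depleted and 307 to 764 in untreated mice. T cell markers summed to 1942 to 2462 in depleted and 2510 to 2701 in untreated mice, of which Cd2 made up 1938 ± 196 in depleted and 2253 ± 92.3 in untreated mice. Of the 8 promoter factor genes, 11 tested Ciita regulators, 10 antigen processing genes and 3 tested turnover genes, 0 passed in limma in experiment 1. At an unadjusted p under 0.05 these lists held 2 lower, 0, 1 higher and 1 lower, beside 4.67% of all genes lower and 4.16% higher. Of 7 tested B cell stage genes 0 passed in limma, with 3 lower and 0 higher at an unadjusted p under 0.05. Their log2 changes ran from -1.20 to 0.49, with 2 of the 7 above 0. Rag1, Myb and Ighd, called in this comparison of experiment 2, were -1.20 ± 0.51, -0.79 ± 0.21 and 0.26 ± 0.27 here (limma, adjusted p = 0.555, 0.443 and 0.798). The part of B cell stage in the class II values was not tested.

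**Figure D3:**
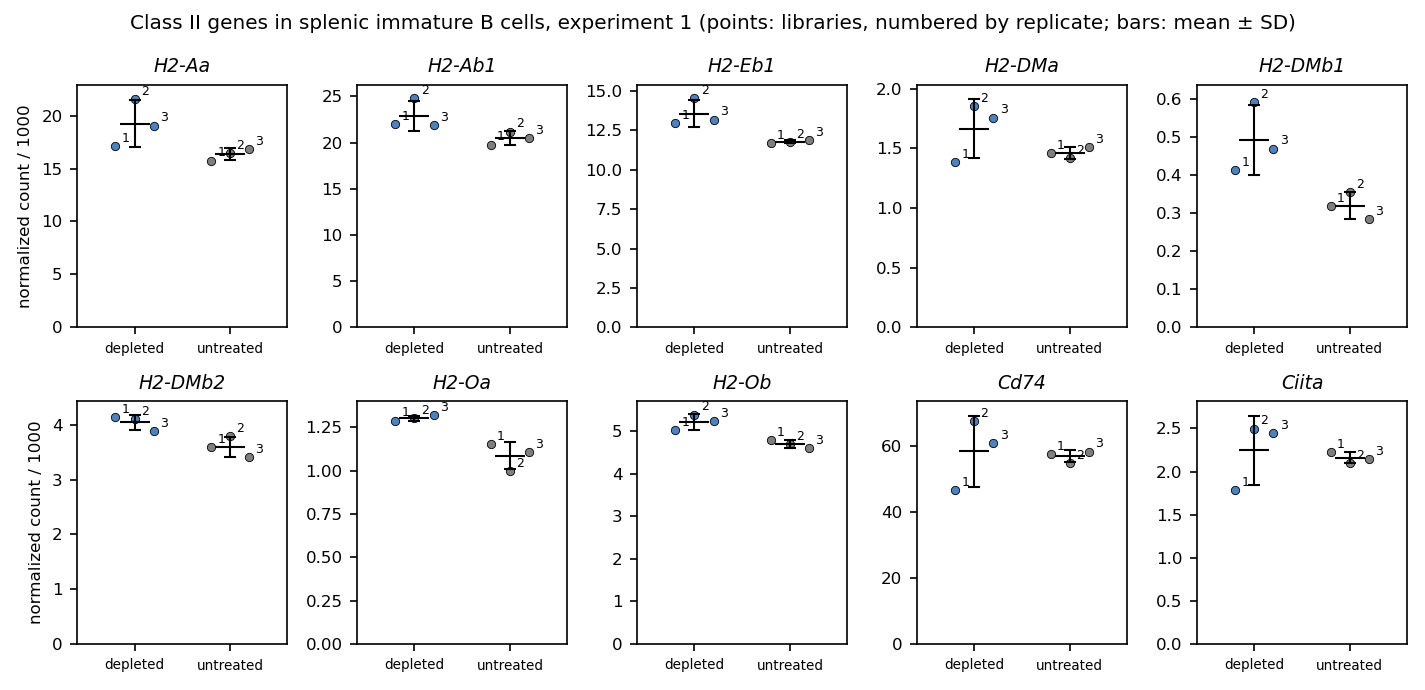
Normalized counts divided by 1000 (linear axes from 0) of the 10 genes in experiment 1, for depleted (blue, left) and untreated mice (grey, right); points are libraries numbered by replicate and bars are the mean ± SD (n = 3 each). Depleted libraries lie above all untreated ones in 7 panels, with H2-Ab1 at a log2 change of -5.65e-05 after quantile normalization, and depleted replicate 1 is the lowest library in Cd74, Ciita and H2-DMa.

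**Figure D4:**
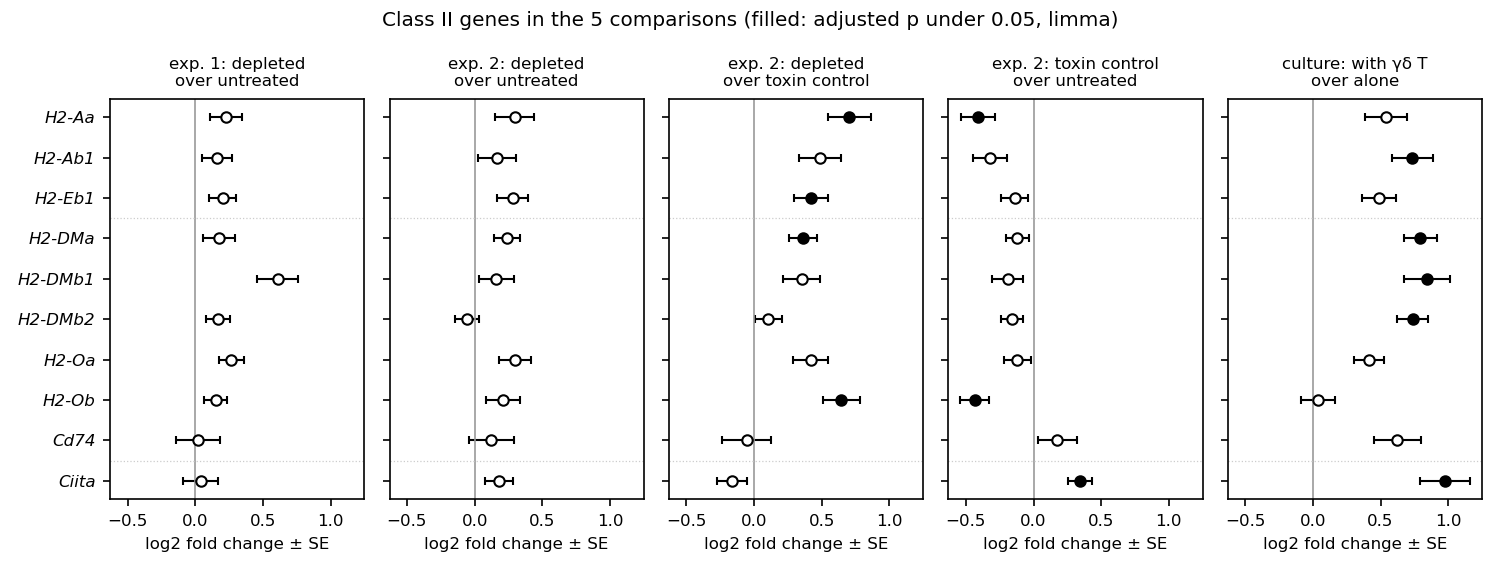
Log2 fold changes ± SE (limma, log2 of normalized count + 1) of the 10 genes in the 5 comparisons, each the first-named group over the second; filled points have an adjusted p under 0.05, dotted lines part the classical chains, the loading genes and Ciita. Filled points number 0 in both depleted over untreated comparisons, 4 in depleted over toxin control, 3 in toxin control over untreated and 5 in culture; quantile normalization reverses the sign of H2-Ab1 in experiment 1, Cd74 in depleted over untreated of experiment 2, H2-Eb1 in depleted over toxin control, H2-Ab1 and H2-Eb1 in toxin control over untreated and H2-Ob in culture.

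Within groups, the class II genes did not all vary together from library to library. With log2 values centred on their group means over all 22 libraries, Pearson's r was 0.91 between H2-Aa and H2-Ab1, 0.92 between H2-Aa and H2-Eb1 and 0.94 between H2-Ab1 and H2-Eb1. Without the 2 depleted libraries of experiment 2 these were 0.86, 0.87 and 0.89 (n = 20). Against the mean of the classical chains, H2-Ob had an r of 0.82, H2-DMa 0.61, H2-Oa 0.59, H2-DMb2 0.53 and H2-DMb1 0.25. Without the depleted libraries of experiment 2 these were 0.72, 0.67, 0.53, 0.58 and -0.09. Cd74 and Ciita did not follow the mean of the classical chains, at -0.12 and -0.17. Without the depleted libraries of experiment 2 Ciita stood at -0.43. Ciita varied instead with H2-DMb1 (0.74 with or without those libraries) and more loosely with Cd74 (0.44). Culture replicate 3 with γδ T cells weighed on these values of Ciita, at 5958 normalized counts against 3529 and 3458 in replicates 1 and 2. That library also had the highest H2-DMb1 and Cd74 and the lowest classical chains of its group. The r values without it were not computed, so no inverse relation is read from them. These are descriptions over libraries that share depth and scaling within a library, with no test. Of 8967 other genes with a mean of at least 50 in all 3 tables, the 6 whose variation was most like that of the classical chains were Serinc1 (r 0.94, Spearman's rho 0.91), Ccdc59 (0.91, 0.84), Serp1 (0.91, 0.88), Ntan1 (0.9, 0.83), Maf1 (0.9, 0.75) and Tmem50a (0.89, 0.88). Without the depleted libraries of experiment 2 their r ran from 0.82 to 0.91.

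**Figure D5:**
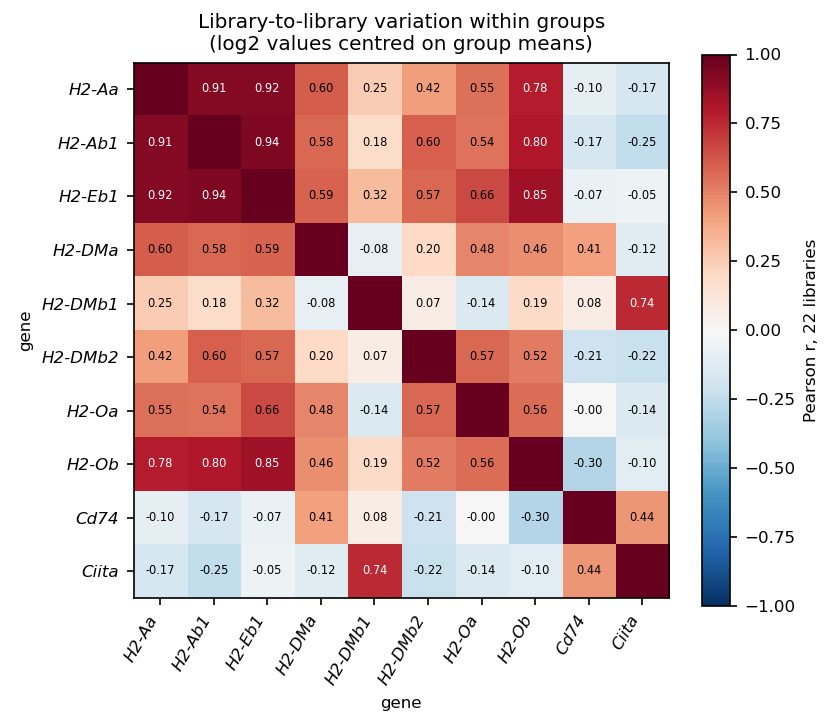
Pearson's r between the 10 genes over 22 libraries, each gene's log2 value centred on its group mean; colour and the number in each cell give r, from -1 (blue) to 1 (red). The classical chains and H2-Ob form a block of 0.78 to 0.94, while Ciita is at 0.74 with H2-DMb1 and between -0.25 and -0.05 with the classical chains. Without the depleted libraries of experiment 2, H2-Ob is at 0.66 to 0.75 with the classical chains. Culture replicate 3 with γδ T cells, highest in Ciita and lowest in the classical chains of its group, weighed on the values of Ciita. The r values without it were not computed.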

How the data were processed

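The deposited values are normalized counts per gene, a signal the authors scaled within each of 3 tables; the sources used here name no counter, annotation, strand setting or scaling method. Reads were aligned with STAR 2.5.2b to mm10, per the submitters' processing notes. All values were whole multiples of 1 read (100% within 0.01). Genes with a mean of at least 10 were tested with limma 3.58.1 (moderated, with a mean trend) on log2(value + 1), p-values adjusted by Benjamini-Hochberg within each comparison; folds are on that scale and understate changes of low genes. Experiment 2 was fitted as 3 groups together. The methods were tested on simulated data. Alternatives were a pseudocount of 5, no filter, quantile normalization, TMM factors, edgeR 4.0.16 and DESeq2 1.42.0 on recovered reads, a replicate block, 2 groups only, and leaving out each library. edgeR called 0 genes in experiment 1. In experiment 2 it called 51 (depleted against untreated), 1189 (depleted against toxin control) and 2101 (toxin control against untreated), and in culture 237. Members and lists were chosen with earlier results of these data known. All members were named, and of each other list the called genes with the smallest p, at most 3 per comparison. Brd2, Dexi, BC051537, Siglech, Cd2 and Cd3e were named after their values were seen. Some list genes are not reported here. Exon lengths are merged GENCODE M21 exons.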

Additional observations from a re-analysis of the deposited data

How the results depend on the processing

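Among the log2 changes of the 10 genes in the 5 comparisons, alternatives other than leaving out a library kept direction and side of the threshold in 331 cases, gained a call in 14, lost one in 9 and reversed in 6. All 6 reversals came under quantile normalization: H2-Ab1 in experiment 1 (-5.65e-05), Cd74 in depleted over untreated mice of experiment 2 (-0.066), H2-Eb1 in depleted over toxin control (-0.0067), H2-Ab1 (0.055) and H2-Eb1 (0.17) in toxin control over untreated mice, and H2-Ob in culture (-0.016); the cause was not tested. Of the 10 genes, depleted over toxin control called 2 with no filter, beside 375 of 25398 genes called higher. With 2 groups fitted it called 1 of the 10, beside 245 of 13364 genes called higher. Culture called 9 of the 10 by DESeq2, beside 1.61% of 12386 genes called higher. Over all genes, experiment 1 called 2 with no filter and 31 by DESeq2. Depleted against untreated mice of experiment 2 called 137 by DESeq2 and 5 with 2 groups fitted, and depleted against toxin control 725 with no filter and 451 with 2 groups fitted. Leaving out each library gave 0 to 1097 genes called in experiment 1 (0 to 3 of the 10), 0 to 580 in depleted against untreated mice of experiment 2 (0 to 1), 39 to 2716 in depleted against toxin control (0 to 7), 196 to 2994 in toxin control against untreated mice (0 to 4) and 103 to 664 in culture (1 to 9). Signs turned on leaving out a library for Cd74 (-0.095 to 0.17) and Ciita (-0.045 to 0.20) in experiment 1, H2-Ab1 (-0.052 to 0.38) and H2-DMb1 (-0.11 to 0.43) in depleted over untreated mice of experiment 2, Cd74 in depleted over toxin control (-0.14 to 0.031) and H2-Ob in culture (-0.026 to 0.11). Same-numbered libraries did not deviate together throughout (r of -0.02, -0.04 and 0.05 in experiment 1, -0.07 and -0.11 in experiment 2, and 0.20, -0.04 and 0.23 in culture), and not every library correlated best with its own number. In experiment 2 the 2 depleted libraries were centred on their shared mean. Their r values are thus equal and opposite and cannot decide on pairing. In culture, replicates 1 and 3 correlated best with their own number and replicate 2 did not, so pairing there is left undecided. With a replicate block, 0 genes were called in experiment 1, 150 in depleted against untreated mice of experiment 2 (4 libraries) and 448 in culture, and 0, 0 and 5 of the 10. No paired analysis was possible for the toxin control because it shares no replicate number with the other groups.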
